A study of Mus musculus with 1019 samples.

Results

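The genes described here are Il1rl1, Gata3, Irf4, Batf, Rora, Nfil3 and Myd88, a set of 7 taken by name out of 23725 rows of the UMI count table, to follow the IL-33 receptor ST2 and the transcription factors around it in visceral fat regulatory T cells (Tregs). A UMI is a molecular tag that marks 1 captured mRNA molecule, so that copies made by amplification are counted once. Single cells were sorted as live TCRb+ CD4+ CD25+ cells and barcoded in droplets by inDrops. Of the 3 libraries, 2 held cells of epididymal visceral adipose tissue (VAT), here VAT library 2 with 330 cells and VAT library 3 with 314 cells after the replicate numbers of their titles, and 1 held 375 spleen cells. Every cell was labelled as coming from male B6 mice of 20 months, with no genetic alteration or treatment named. VAT was digested with collagenase and dispase while spleen was dissociated mechanically, so tissue and dissociation cannot be told apart in any difference between them. The tissue label of the spleen cells names both tissues, while their title and source name spleen. No label ties a library to an animal and there is 1 spleen library, so no test across animals was possible, and all intervals are 95% intervals that cover counting error only.

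IL-33 is a cytokine stored in the nucleus of stromal and endothelial cells and released when tissue is stressed or damaged. It binds ST2, the product of Il1rl1, which pairs with the accessory chain Il1rap and recruits the adaptor MyD88, IRAK kinases and TRAF6 to activate NF-kB and MAP kinases. In mice, VAT Tregs are known for carrying ST2 and expanding in response to IL-33, and the transcription factors BATF and IRF4 have been reported to act upstream of ST2 and PPARg in them.

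The libraries held 548770 to 573622 UMIs, with a median of 1565 UMIs per cell in VAT library 2, 1611 in VAT library 3 and 1423 in the spleen library. Summed UMIs of 12 Treg and T cell markers came to 3345, 2836 and 2484 in the same order, with Foxp3, the Treg lineage factor, at 263, 189 and 221 UMIs. The markers behind this sum went both ways. Il2ra had 614, 555 and 260 UMIs and Ctla4 351, 308 and 75, while Cd3d had 132, 127 and 283 and Cd3e 89, 60 and 131. Erythroid markers stood at 1 UMI in each VAT library and at 114 UMIs in the spleen library, in 80 of its cells. Markers of myeloid, B, CD8 T and NK, adipocyte, and stromal and endothelial cells summed to at most 37 UMIs a list in any library. VAT libraries 2 and 3 shared 2 cell barcodes, VAT library 3 and spleen shared 1, and VAT library 2 and spleen shared 0.

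Il1rl1 was the most unequal of the set between the tissues. It gave 615 UMIs in VAT library 2 and 588 in VAT library 3, against 15 in spleen, or 1106 and 1071 CPM (UMIs of the gene per 1000000 UMIs of the library) against 26.1 CPM. The VAT libraries lay close together and far above spleen, 42.3-fold (25.4 to 76.0) and 41.0-fold (24.6 to 73.7) higher. Its smaller log2 ratio exceeded that of 99.6% of the 7429 genes with at least 20 UMIs. At the level of summed UMIs alone, fewer expressing cells and less RNA per cell cannot be told apart.

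Counted per cell, an Il1rl1 UMI was present in 220 of the 330 cells of VAT library 2 (66.7%, 61.3 to 71.7) and 209 of the 314 cells of VAT library 3 (66.6%, 61.0 to 71.8), against 12 of 375 (3.20%, 1.66 to 5.52) in spleen. With every cell thinned at random to 800 UMIs, so that deeper cells had no advantage, the shares were 50.3% and 49.0% in the VAT libraries and 2.40% in spleen. In the VAT libraries 96 and 92 cells held 3 or more Il1rl1 UMIs and the highest cell held 13 and 12, whereas 0 spleen cells held 3 or more and the highest held 2. VAT cells with an Il1rl1 UMI averaged 2.80 and 2.81 of them, against 1.25 in the 12 spleen cells, so both the share of positive cells and the UMIs per positive cell were higher in VAT.

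**Figure D1:**
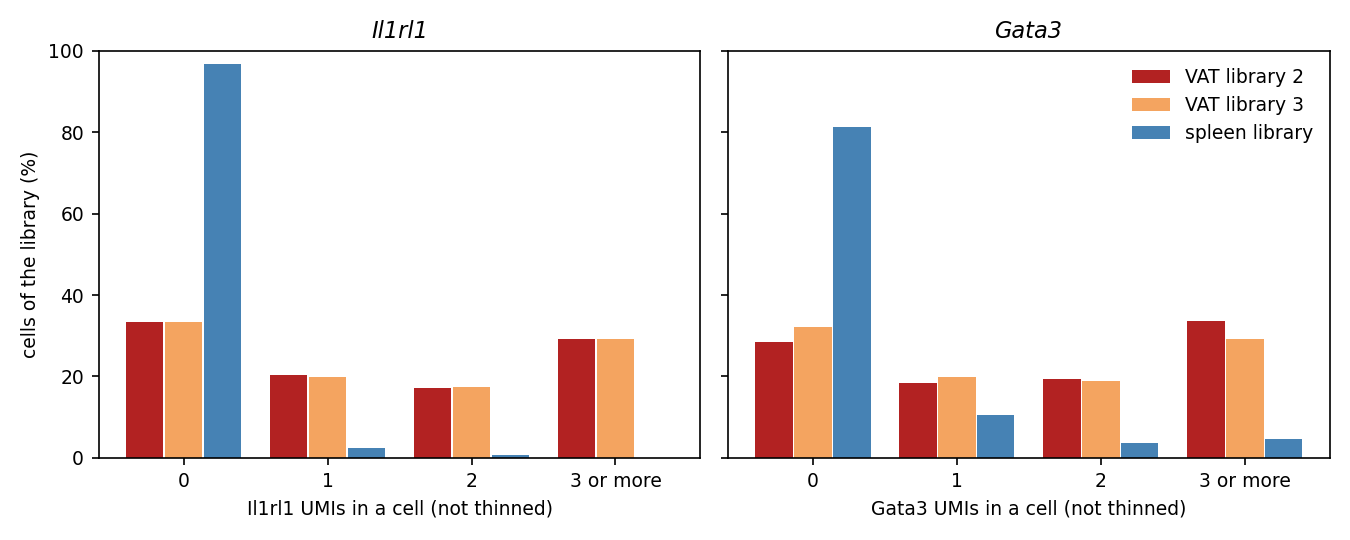
Share of cells (percent of the library, vertical axis from 0) holding 0, 1, 2 or 3 or more UMIs of Il1rl1 (left) and Gata3 (right), before thinning, in VAT library 2, VAT library 3 and the spleen library. Cells with 3 or more Il1rl1 UMIs number 96 and 92 in the VAT libraries and 0 in spleen, while Gata3 has 111 and 92 such cells in VAT and 17 in spleen.

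Other cells that carry ST2 in fat are type 2 innate lymphoid cells, mast cells and eosinophils. The 7 markers of type 2 innate lymphoid cells summed to 36 and 34 UMIs in the VAT libraries and 18 in spleen, with Hpgds at 12 and 15 in VAT and 18 in spleen. The rest were seen in VAT alone: Calca had 11 and 8 UMIs there, Il5 6 and 8, Arg1 4 and 2, Il13 3 and 0 and Il17rb 0 and 1, all against 0 in spleen, while Nmur1 was at 0 in all 3 libraries. Mast cell and basophil markers summed to 5 and 1 UMIs in VAT and 0 in spleen, with Gata2 at 0 throughout, and eosinophil markers to 1 and 0 in VAT and 0 in spleen. Without the cells holding a UMI of any other cell type's markers, the mean log2 ratio of Il1rl1 was 4.99, against 5.33 in all cells.

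Of the 12 spleen cells with Il1rl1, 9 held a single UMI of it, and no cell type that should lack the gene was sorted to give a background share. In all, 11 genes were compared between them and the other spleen cells. Of the 12 cells, 3 (25.0%, 5.49 to 57.2) also held Klrg1, an inhibitory receptor of effector Tregs, against 9 of the 363 other spleen cells (2.48%, 1.14 to 4.65). These intervals did not overlap, which held for Klrg1 alone (1 of the 11). Gata3 was in 2 of the 12 and in 68 of the 363 (18.7%), and Foxp3 in 5 of the 12 and 125 of the 363 (34.4%), with overlapping intervals for both.

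Il1rl1 lies on the plus strand of chromosome 1 at 40429570 to 40465415 (GENCODE M21, GRCm38), with 2 annotated coding forms in the CCDS set. Transcripts of the shorter one (CCDS56626.1) start at 40429570 or 40439776 and end at 40446723 or 40448148, and those of the longer one (CCDS35548.1) start at 40439627 or 40440628 and end at 40465415 or 40465396. A further coding transcript without a CCDS entry runs from 40436589 to 40441407. The shorter ending belongs to the soluble decoy receptor and the longer one to the membrane receptor. The table has 1 row for the gene, so the UMIs above do not tell the 2 forms apart. Il1rl1 and Gata3 were both higher in VAT, and GATA3 is a DNA-binding factor that has been reported to act at the Il1rl1 locus. The bases upstream of the 2 RefSeq starts of Il1rl1, and of the RefSeq start of Gata3, are therefore shown. Each is 250 bases, 5′ to 3′ on the gene's strand, from RefSeq (GRCm38.p6), with capitals marking matches to the motifs searched.
Il1rl1 first start, chr1:40429320-40429569, plus strand: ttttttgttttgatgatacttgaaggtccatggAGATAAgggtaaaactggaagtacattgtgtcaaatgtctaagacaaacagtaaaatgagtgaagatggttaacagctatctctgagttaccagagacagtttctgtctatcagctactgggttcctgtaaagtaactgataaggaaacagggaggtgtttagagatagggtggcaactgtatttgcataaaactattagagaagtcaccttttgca
Il1rl1 second start, chr1:40439379-40439628, plus strand: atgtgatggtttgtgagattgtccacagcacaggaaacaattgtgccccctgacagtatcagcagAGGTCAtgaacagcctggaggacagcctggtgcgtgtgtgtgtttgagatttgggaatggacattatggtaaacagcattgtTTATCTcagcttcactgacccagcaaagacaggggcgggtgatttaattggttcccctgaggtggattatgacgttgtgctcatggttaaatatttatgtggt
Gata3, chr2:9878601-9878850, minus strand: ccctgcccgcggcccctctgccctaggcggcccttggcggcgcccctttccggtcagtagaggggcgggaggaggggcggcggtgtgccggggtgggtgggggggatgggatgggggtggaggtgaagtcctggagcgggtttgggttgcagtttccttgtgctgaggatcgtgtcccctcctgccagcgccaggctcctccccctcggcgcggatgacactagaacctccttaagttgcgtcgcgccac
The GATA letters AGATAA, on either strand, occurred once 217 bases before the first Il1rl1 start and once 103 bases before the second. Before the second they read TTATCT, and the Gata3 window held them 0 times. They occurred in 9.99% of the 32851 RefSeq windows of this length. The Gata3 window lies inside the gene's GENCODE span (9857078 to 9890034), so bases before its outermost annotated start were not searched. The ROR letters AGGTCA stood 185 bases before the second Il1rl1 start and are in 14.0% of windows. Other motifs searched on both strands were TGANTCA for AP-1 (6.75% of windows), a pair of GAAA with 2 bases between for IRF (2.98%), TTANNTAA for the bZIP family of Nfil3 (5.43%), and GGGA and TTTCC with 1 base between for NF-kB (0.356%). None was in these 3 windows, and no binding was measured here.

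Myd88, the adaptor on which ST2 signalling depends, went the other way in its values but was not 2-fold apart. It gave 21 and 16 UMIs in the VAT libraries and 31 in spleen, or 37.8 and 29.2 CPM against 54.0 CPM. Both VAT libraries were below spleen, at 0.699 (0.382 to 1.26) and 0.540 (0.276 to 1.02) of its level, with intervals that include no difference. Thinned shares were 3.03% and 1.91% of VAT cells and 3.20% of spleen cells. Its whole locus on chromosome 9 lies within the span of Slc22a14 on the same strand. Part of it also overlaps Acaa1a on the opposite strand, so reads in an overlap could be assigned to either gene.

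Gata3 encodes a zinc finger factor that sets the type 2 helper programme and helps to keep Tregs stable. It gave 780 and 578 UMIs in the VAT libraries, against 132 in spleen, or 1403 and 1053 CPM against 230.1 CPM. Both VAT libraries were higher, 6.10-fold (5.06 to 7.39) and 4.58-fold (3.78 to 5.57), and VAT library 2 was itself 1.33-fold (1.19 to 1.49) above VAT library 3. Thinned shares were 53.3% and 49.4% of VAT cells, against 12.3% of spleen cells (9.12 to 16.0). Gata3 was thus seen in more spleen cells than Il1rl1 was, and 17 spleen cells held 3 or more of its UMIs. Gata3, on the minus strand of chromosome 2 at 9857078 to 9890034, overlaps 9230102O04Rik on its own strand and 4930412O13Rik on the other.

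Irf4, a factor of antigen receptor signalling that partners with BATF, gave 75 and 61 UMIs in the VAT libraries and 10 in spleen. Its level was 134.9 and 111.2 CPM in VAT against 17.4 CPM in spleen, 7.74-fold (3.98 to 16.8) and 6.38-fold (3.24 to 14.0) higher. The VAT libraries overlapped each other and stood clear of spleen. Thinned shares were 8.79% and 5.73% against 1.33%. Batf, the AP-1 family partner of IRF4, showed no such split. It gave 67 and 42 UMIs in VAT and 58 in spleen, or 120.5 and 76.5 CPM against 101.1 CPM, so that spleen lay between the VAT libraries. Its ratios were 1.19 (0.826 to 1.72) and 0.757 (0.496 to 1.15).

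Rora, an orphan nuclear receptor found in tissue Tregs and type 2 innate lymphoid cells of mice, was sparse, with 14 and 16 UMIs in the VAT libraries and 1 in spleen. Against a single spleen UMI the ratios of 14.4 (2.20 to 611) and 16.7 (2.60 to 701) have little precision. It was seen in 10 and 12 VAT cells and in 1 spleen cell. In the cells with a Foxp3 UMI alone, its mean log2 ratio was 0.61, against 3.42 in all cells. That subset holds 128 and 98 VAT cells and 130 spleen cells, with at most 1 Rora UMI in spleen. The value of 0.61 therefore does not show that the tissues are level. Nfil3, a bZIP repressor of the circadian system that innate lymphoid cells need to develop, gave 43 and 27 UMIs in VAT and 28 in spleen. Its CPM was 77.3 and 49.2 against 48.8, with ratios of 1.58 (0.962 to 2.65) and 1.01 (0.572 to 1.77), so that VAT library 3 and spleen were level. Its 28 spleen UMIs came from 10 cells, 1 of which held 7.

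**Figure D2:**
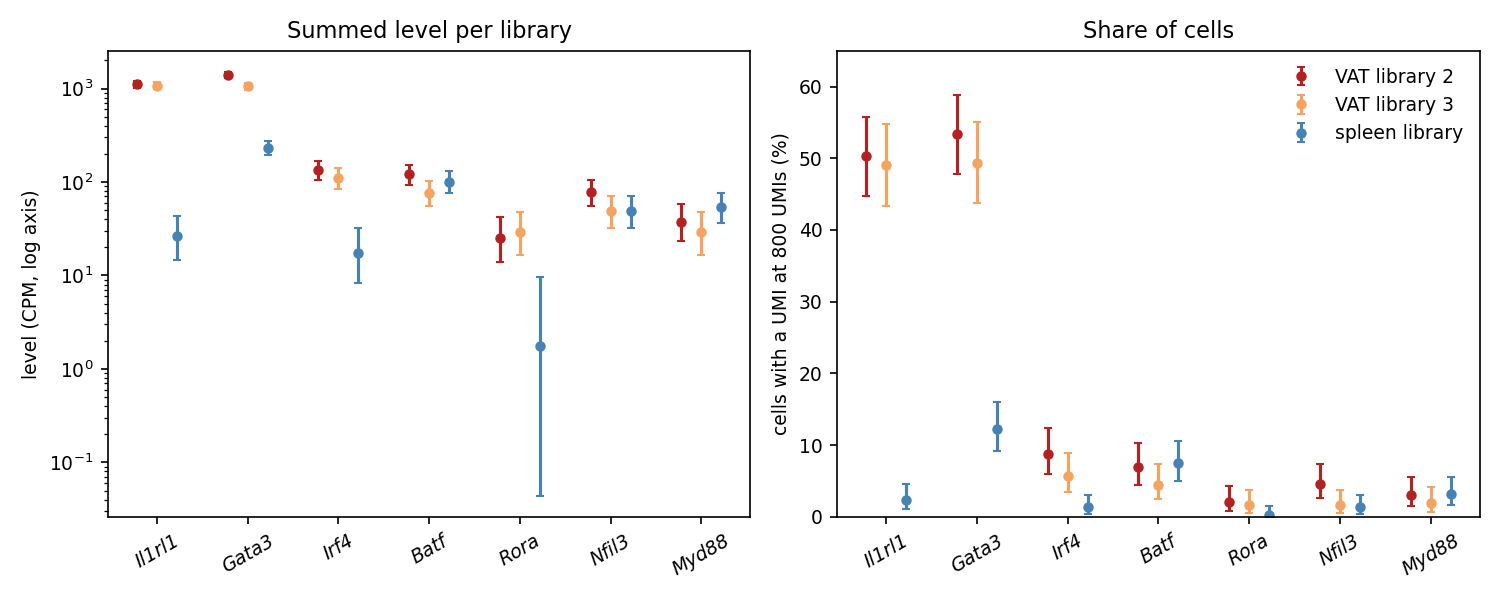
Level (CPM, log axis, left) and share of cells with a UMI after thinning to 800 UMIs per cell (percent, right) of the 7 genes in VAT library 2, VAT library 3 and the spleen library, with 95% Poisson and Clopper-Pearson intervals of counting error. Il1rl1, Gata3 and Irf4 stand apart between VAT and spleen on both scales, whereas Batf, Nfil3 and Myd88 overlap.

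Under a rule of at least 2-fold in both VAT libraries, on log2 ratios with 0.5 added to each count, Il1rl1, Gata3 and Irf4 were higher, out of the 6 genes that reached 50 UMIs in all, and 0 were lower. By the same rule 10.3% of the 4635 such genes were higher and 4.40% were lower. Rora, with 31 UMIs, was higher too among genes with 20 or more UMIs, where 10.5% of 7429 genes were higher and 6.45% lower. With library totals taken without ribosomal protein genes, the median log2 ratio of all genes moved to -0.19 and -0.22 from 0.04 and -0.02, and 383 genes were higher and 338 lower in place of 478 and 204. The 4 genes called higher were higher under that scaling too.

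The chain from receptor to NF-kB was read from 24 genes, 19 of them with 20 or more UMIs. Of these 5 were at least 2-fold higher in both VAT libraries, Il1rl1 itself among them, and 0 lower. Over all genes with 20 or more UMIs 10.5% were higher and 6.45% lower. The median log2 ratios of the list were 0.28 and 0.19, against 0.04 and -0.06 for all such genes. The receptor itself and Map3k8, a kinase that the NF-kB1 precursor holds in check, were the most unequal. Map3k8 had 47 and 18 UMIs in VAT and 1 in spleen. Map3k7, which encodes the TAK1 kinase, had 22 and 14 against 5, Chuk, an IKK subunit, had 13 and 23 against 6, and Irak3, a dampening member of the IRAK family, had 10 and 9 against 4. The Irak3 intervals included no difference in both VAT libraries (0.744 to 11.3 and 0.656 to 10.5). So did those of Map3k7 in VAT library 3 (0.996 to 10.4) and of Chuk in VAT library 2 (0.793 to 7.17). Irak1, Irak4, Traf6 and Ikbkb were not called. Irak1 was at 723 and 869 CPM in VAT and 983 CPM in spleen, and the others each had between 8 and 38 UMIs in every library. At such counts the intervals of Irak4 (0.504 to 3.01 and 0.461 to 2.85) and Traf6 (0.244 to 1.83 and 0.430 to 2.54) do not exclude a 2-fold difference. Tirap, an adaptor of toll-like receptors, was at 91.7 and 69.2 CPM against 143.0 CPM. The second receptor chain, Il1rap, had 3 UMIs in each library, at the floor of 3 counts used here, and Il33 had 0 in all. Other receptors of the family were not higher: Il18r1 had 17 and 7 UMIs in VAT against 32 in spleen, and Sigirr, a brake on ST2 signalling, 27 and 26 against 34.

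Of the 12 NF-kB subunits and inhibitors, 5 were called higher in both VAT libraries and 0 were called lower. The shares over all genes with 20 or more UMIs were 10.5% and 6.45%, and the medians of the list were 0.89 and 0.95. All 5 encode inhibitors or modulators. Nfkbia, the inhibitor IkBa, was at 5781 and 5603 CPM in VAT against 539 CPM in spleen, ratios of 10.7 (9.55 to 12.1) and 10.4 (9.25 to 11.7), and Tnfaip3, the ubiquitin editor A20, 32.7-fold (24.9 to 43.7) and 27.9-fold (21.2 to 37.3) higher. Nfkbiz, a nuclear IkB protein, was at 680 and 559 CPM against 19.2 CPM, and Nfkbid, another, at 1192 and 1093 CPM against 81.9 CPM. Nfkbie was 2.27-fold and 2.30-fold higher. The DNA-binding subunits were not called. Rel came closest, with 10 and 17 UMIs in VAT against 5 in spleen. Its CPM ratios of 2.06 (0.642 to 7.69) and 3.55 (1.26 to 12.3) both passed 2-fold, and it missed the call because adding 0.5 to each count brought the first log2 ratio to 0.98. Nfkb1 was at 234 and 200.4 CPM against 218 CPM, and Rela at 95.3 and 87.5 CPM against 73.2 CPM. As background, Nfkbia, Tnfaip3 and Nfkbiz are induced within a short time by many stimuli, as are Junb, Jund and Jun, and tissue digestion is one of these.

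Around Gata3, 13 of 21 partner and type 2 genes were measured, and 4 were higher, 1 of them Gata3 itself, and 0 lower, with medians of 0.36 and 0.21. Over all genes with 20 or more UMIs 10.5% were higher and 6.45% lower. Besides Gata3 those called higher were the cytokine signalling targets Cish, 4.96-fold (3.82 to 6.53) and 4.32-fold (3.31 to 5.70) higher, and Socs2, 3.04-fold (2.10 to 4.49) and 2.92-fold (2.01 to 4.33) higher, and the chemokine receptor Ccr4, with 19 and 17 UMIs against 6. The signalling factor Stat6 was at 165 and 94.8 CPM in VAT against 213 CPM in spleen. Il4 had 0 UMIs in every library, Il13 had 3 and 0 in VAT and 0 in spleen, and Il5 had 6 and 8 in VAT and 0 in spleen, at least 2.06-fold and 2.79-fold higher than a floor of 3 counts in the spleen library.

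The BATF and IRF group was the most divided. Of 16 measured genes 8 were higher and 3 lower in both VAT libraries, beside 10.5% and 6.45% of all genes with 20 or more UMIs. Their medians were 1.27 and 1.12. Among those higher were Irf4, Irf5, Prdm1, which encodes the effector factor Blimp-1, and the AP-1 genes Fosl2, Junb, Jund and Jun. Prdm1 had ratios of 3.76 (2.05 to 7.35) and 2.69 (1.41 to 5.40), Fosl2 of 28.2 (16.9 to 50.8) and 20.1 (12.0 to 36.4), and Junb of 16.2 (14.3 to 18.5) and 15.0 (13.2 to 17.1), so that Jun family genes, whose products pair with BATF, were called higher in VAT while Batf was not. Lower were Irf2, at 0.430 and 0.423 of the spleen level, Irf9, at 0.484 and 0.483, and Bach2, a repressor that competes with AP-1 and keeps Tregs quiescent, with 3 and 6 UMIs against 26.

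Among nuclear receptors and clock factors, 11 of 20 were measured, of which 7 were higher and 1 lower, with medians of 2.10 and 1.37, beside the same 10.5% and 6.45% over all genes. Pparg, the fat Treg factor that acts with ST2, had 49 and 46 UMIs in VAT and 2 in spleen. Of the clock repressors, Per1 had 68 and 56 UMIs in VAT against 6 in spleen, Bhlhe40 39 and 22 against 9, Nr1d1 17 and 9 against 2, and Nr1d2 23 and 18 against 7. Nr1d1 and Nr1d2 encode the REV-ERB receptors, which compete with ROR receptors for the same DNA element. The bZIP activator Hlf had 29 and 41 UMIs in VAT against 3 in spleen. Tef, a bZIP activator that reads the same DNA element as Nfil3, was lower, with 5 and 5 UMIs against 18.

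Within VAT, cells with an Il1rl1 UMI were compared with those without one. In the fixed draw of 800 UMIs per cell, 90 cells of VAT library 2 and 88 of VAT library 3 held both Il1rl1 and Gata3, or 27.3% and 28.0%, against 0 of 375 spleen cells, where a count of 3 would be 0.800% and the exact interval reaches 0.979%. Il1rl1 without Gata3 was in 76 and 66 VAT cells and 9 spleen cells, Gata3 without Il1rl1 in 86 and 67 VAT cells and 46 spleen cells, and neither in 78 and 93 VAT cells and 320 spleen cells. From the separate shares alone, 88.5 and 76.0 VAT cells and 1.10 spleen cells would hold both. Before thinning, 2 spleen cells did. At 800 UMIs a cell without a UMI of a gene is not shown to lack its transcript.

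Gata3 was in 54.2% of Il1rl1 cells against 52.4% of the others in VAT library 2, a difference of 1.78 points (-8.89 to 12.4), and in 57.1% against 41.9% in VAT library 3, a difference of 15.3 points (4.21 to 25.8). Over 20 draws these differences ranged from 1.70 to 14.6 points and from -1.27 to 17.8 points. Averaged exactly over all possible draws, an alternative added after the data were seen, the differences were 6.33 points (-4.37 to 16.8) and 7.80 points (-3.23 to 18.6), close to each other and with intervals that include 0. The same average over 1727 genes with at least 100 UMIs in VAT had medians of 0.12 and -0.06 points, and 26.0% of genes were higher in both libraries. Gata3 stood above 99.5% and 99.9% of them, on a scale on which genes seen in few cells can move little.

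Levels in all UMIs, likewise added after the data were seen, gave Gata3 at 1538 CPM in cells with Il1rl1 against 1101 CPM in cells without in VAT library 2, and at 1162 against 804 CPM in VAT library 3. The ratios were 1.40 (1.18 to 1.65) and 1.44 (1.19 to 1.77), higher than those of 86.0% and 88.8% of the 1727 genes. Cells with an Il1rl1 UMI were deeper, with medians of 1634.5 against 1460 UMIs and 1693 against 1482 UMIs. Among the shallower cells of each library the Gata3 ratios were 1.24 (0.989 to 1.56) and 1.45 (1.07 to 1.99), and among the deeper cells 1.84 (1.41 to 2.43) and 1.40 (1.08 to 1.85). All 4 lay above 1, with the interval including 1 in the shallower cells of VAT library 2.

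Batf, which was not called between the tissues, was at 145 CPM in cells with Il1rl1 against 64.8 CPM in cells without in VAT library 2, and at 86.2 against 54.4 CPM in VAT library 3. Its ratios were 2.24 (1.16 to 4.74) and 1.58 (0.741 to 3.76), resting on 11 and 9 UMIs in the cells without. At 800 UMIs its averaged differences were 0.58 and 0.68 points. Irf4, which was called higher in VAT, had ratios on both sides of 1, at 1.30 (0.759 to 2.31) and 0.823 (0.474 to 1.47), with averaged differences of -1.37 and -0.66 points. Nfil3 had ratios of 3.35 (1.31 to 10.9) and 1.51 (0.590 to 4.58), Myd88 of 0.881 and 1.30, and Rora of 0.587 and 1.87, so Rora and Myd88 went opposite ways in the 2 libraries. Within depth the values were less steady than for Gata3: in VAT library 2 the Batf ratio was 1.44 (0.510 to 4.61) in the shallower and 2.85 (1.13 to 9.21) in the deeper cells, and that of Irf4 was 0.784 (0.324 to 1.93) and 1.78 (0.827 to 4.38). Nfil3 was at 0.963 (0.366 to 2.96) in the deeper cells of VAT library 3.

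Over all 21 pairs of the 7 genes, the averaged number of cells holding both was above that given by the separate shares in both VAT libraries for 8 pairs, below it for 6 and split for 7, and in the fixed draw alone for 4, 6 and 11. Only 5 pairs had 5 or more such cells in both libraries. Of these Gata3 with Batf had 14.8 cells against 13.5 given by the shares in VAT library 2 and 10.04 against 8.19 in VAT library 3, and Il1rl1 with Gata3 had 94.6 against 89.4 and 81.6 against 75.5. Il1rl1 with Batf had 12.5 against 12.0 and 8.60 against 8.06. Irf4 was below with both, at 12.7 against 13.8 and 9.24 against 9.76 with Il1rl1, and at 14.6 against 15.5 and 9.66 against 9.91 with Gata3. Of the 7 genes, 2 or more were seen together in 129 cells of VAT library 2, 112 of VAT library 3 and 10 of spleen in the fixed draw.

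Of 17 genes of the VAT Treg effector programme with at least 100 UMIs in VAT, 14 had a higher level in cells with Il1rl1 in both libraries, 1 a lower level and 2 were split, with median log2 ratios of 0.29 and 0.17, against -0.0070 and -0.00077 over the 1727 genes, of which 25.8% were higher in both. This count was smaller within depth, most of all in the shallower cells. In the shallower cells 5 of the 17 were higher in both libraries and 2 lower, where 25.2% of the 1727 genes were higher in both, and in the deeper cells 10 were higher and 2 lower, where 24.7% of all were higher. These counts were made on log2 ratios, with a constant added to each count. On that scale Cxcr6 and Dgat1 were the 2 effector genes above 0 in shallower and deeper cells of both libraries, as were 6.49% of all genes. The plain ratios of Id2 were above 1 in all of these cells too. In the shallower cells of VAT library 2, however, Id2 was level, at 1.002 (0.694 to 1.46), with a log2 ratio of -0.0022. By averaged shares at 800 UMIs, 11 of all 18 genes of the programme were higher in both, 2 lower and 5 split, and 0 had intervals clear of 0 in both libraries. Dgat1, an enzyme that esterifies fatty acids into triglyceride, was at 490 against 253 CPM in VAT library 2 and at 426 against 266 CPM in VAT library 3, 1.94-fold (1.38 to 2.76) and 1.60-fold (1.14 to 2.29) higher, and among the shallower cells 1.38-fold (0.855 to 2.27) and 1.34-fold (0.809 to 2.29). Il2ra, the CD25 chain used in the sort, was 1.27-fold (1.06 to 1.53) and 1.36-fold (1.12 to 1.66) higher in all cells, but at 0.972 (0.699 to 1.36) in the shallower cells of VAT library 3, and in VAT library 2 the intervals of the shallower and of the deeper cells both include 1. Over all cells the 2 libraries had intervals that did not overlap for Il10, at 2.35 (1.85 to 3.01) and 1.09 (0.883 to 1.35), the growth factor gene Areg, at 1.44 (1.24 to 1.67) and 1.05 (0.924 to 1.19), and Klrg1, at 1.37 (1.24 to 1.53) and 0.965 (0.871 to 1.07), and all 3 had VAT library 3 intervals that include 1. Among the shallower cells the Il10 ratios were level between the libraries, at 1.12 (0.774 to 1.64) and 1.15 (0.779 to 1.71), and among the deeper cells they were 3.47 (2.44 to 5.10) and 0.943 (0.730 to 1.23). Areg in the shallower cells was at 1.15 (0.933 to 1.43) and 0.973 (0.807 to 1.17), while Klrg1 was at 1.26 (1.08 to 1.47) and 0.979 (0.841 to 1.14). Gzmb, a cytotoxic protease, had ratios of 0.376 (0.221 to 0.635) and 1.15 (0.577 to 2.46), but the VAT library 2 value turned with depth, at 0.171 (0.0680 to 0.381) in the shallower and 2.32 (0.692 to 12.1) in the deeper cells. Icos, a costimulatory receptor, was lower in both, at 0.873 (0.629 to 1.22) and 0.823 (0.604 to 1.13), with intervals that include 1.

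**Figure D3:**
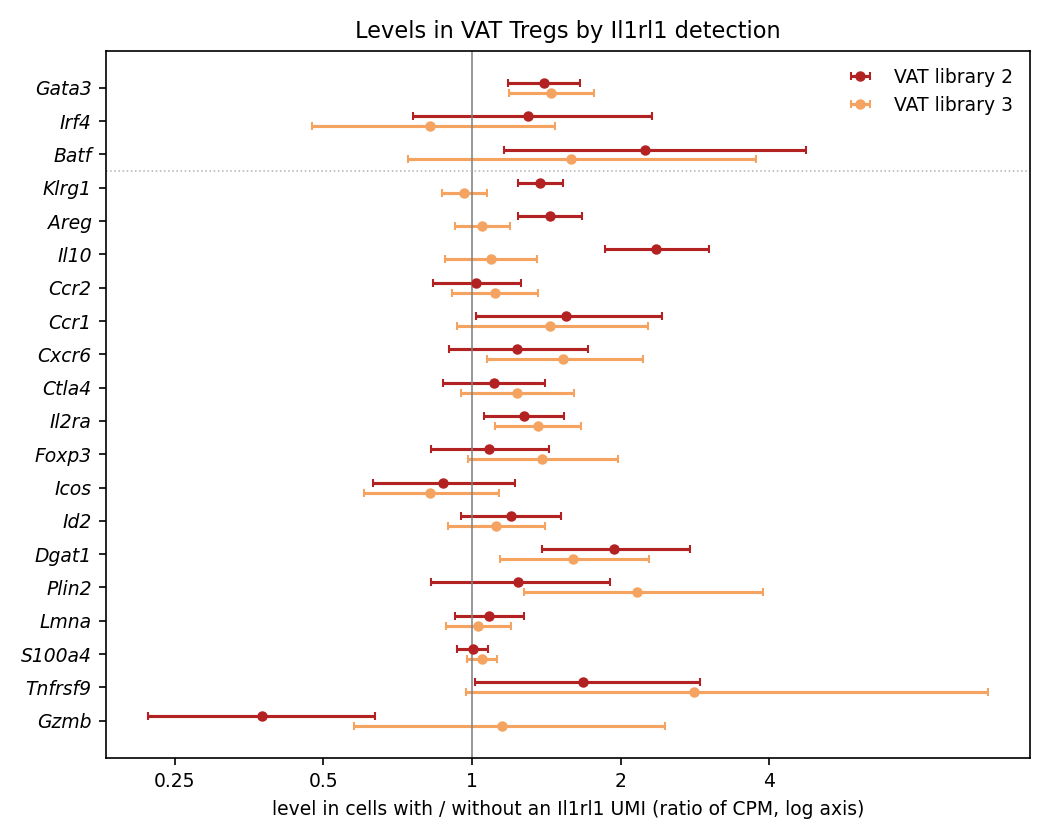
Ratio of level (CPM, log axis) in VAT cells with an Il1rl1 UMI over VAT cells without one, in VAT library 2 and VAT library 3, for 3 of the 7 genes (above the dotted line) and 17 effector genes, with exact 95% intervals of counting error. All cells are used, without regard to depth. The intervals of Gata3, Dgat1 and Il2ra lie wholly to the right of 1 in both libraries. Those of Il10, Areg and Klrg1 do not overlap between the libraries.

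No gene tracked Il1rl1 closely from cell to cell. Among 1827 genes seen in at least 5% of the cells of each VAT library at 800 UMIs, the highest by the smaller of the 2 libraries' Pearson r were Smco4, Gm10845, Gnb2, Tnrc6a, Cxcr6, Bambi-ps1, Hcst and Dgat1, and the lowest by the larger of the 2 were Sla, Bag6, Hnrnpa3 and Cdk2ap2. Smco4, in first place, had r of 0.11 and 0.14 over 330 and 314 cells, and over 20 draws averaged 0.04 and 0.01. Dgat1 averaged 0.06 and 0.08, and Sla -0.09 and -0.09. Among the genes ranked highest for Gata3 were Bcl11b, Eif3c and Eif6, and for Irf4 the highest were Eif4h, Vmp1, 1500012F01Rik and Cd82, with r of like size. The cells share their library and sparse counts, and correlations this weak are no finding.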

How the data were processed

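Single-cell RNA-seq libraries of sorted Tregs from VAT and spleen were made by inDrops, which tags the 3′ end of each mRNA. The deposited table holds raw UMI counts per gene and cell, and per the submitters' processing notes TopHat2, SAMtools and the mm10 build were used. The annotation, the strand setting and the filter on cells are not given in the sources used here. All 1019 cells were used, none had fewer than 800 UMIs, and no doublet caller was run. Counts were summed per library and scaled to CPM with Python 3.11.15, numpy 2.4.6, scipy 1.17.1 and pandas 2.3.3. Intervals are exact Poisson, Clopper-Pearson and conditional binomial ones, and Newcombe ones for differences of shares, all at 95%. UMIs of 1 cell are not independent, so intervals on summed UMIs are too narrow. Cells were thinned to 800 UMIs with a fixed seed. A ratio was called at 2-fold in both VAT libraries, on log2 values with 0.5 added to each count, and the code was tested on simulated data. List genes with 20 or more UMIs were counted, and named where called, where the list had 6 or fewer such genes, or among its largest by UMIs. Genes named beyond this rule, such as Il33, Il1rap, Irak4 and the NF-kB subunits, were chosen after their values were seen. The members and lists were chosen with earlier results of these data known. Some genes that these rules name are not reported here. Alternatives changed the library total, the cells used, the thinning and the fold.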

Additional observations from a re-analysis of the deposited data

How the results depend on the processing

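Il1rl1, Gata3, Irf4 and Rora had mean log2 ratios above 0 under all 11 alternatives tried for their level, between 4.32 and 5.36 for Il1rl1, 1.89 and 2.60 for Gata3, 2.54 and 3.53 for Irf4 and 0.61 and 4.20 for Rora, which was under 2-fold in cells with a Foxp3 UMI. The lowest values came with each cell counted at most once, at 4.32 for Il1rl1 and 1.89 for Gata3. In cells with a Foxp3 UMI they were 1.95 for Gata3 and 0.61 for Rora. Values also left the span of the 2 VAT libraries in other alternatives. Without cells holding markers of other cell types, Il1rl1 was at 4.99, against 5.36 and 5.31 in VAT libraries 2 and 3. Irf4 was then at 3.53, against 2.89 and 2.61, and Rora at 4.20, against 3.32 and 3.52. The Rora values of 0.61 and 4.20 both rest on at most 1 spleen UMI, so neither is precise. Batf ranged from -0.40 to 0.25 and Nfil3 from -0.39 to 1.09, so neither kept a direction. The Il1rl1 share was 66.7% and 66.6% in the VAT libraries without thinning and 29.7% and 29.3% at 400 UMIs. As a mean of the 2 VAT libraries, Gata3 was more often seen in cells with Il1rl1 in each alternative, by 5.88 to 14.0 points, though single draws reached -1.27 points in VAT library 3, and by 1.78 and 15.3 points with 1 VAT library left out. Genes higher in both VAT libraries numbered 783 with 20 or more UMIs, 298 with 100 or more and 200 at 4-fold, and genes lower numbered 479, 85 and 53, and 338 without ribosomal protein genes in the totals. The causes of these moves were not tested, beyond fewer genes passing a stricter rule. No paired analysis was possible because no label links a VAT library to the spleen library through an animal.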
